A study of Mus musculus with 8 samples.

Results

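A set of 10 genes that beta-catenin is known to control was followed in mouse embryonic stem cells (ESCs), namely Axin2, Nkd1, Rnf43, Lgr5, Lef1, Tcf7, Tcf7l1, Sp5, Cdx1 and T. They were taken by name, as a readout of the GSK3 inhibitor CHIR99021 and of feeder cells, and make up 10 of the 20278 genes in the deposited tables. They were chosen with earlier results of these data known, so their counts beside the shares of all genes are a description. All 10 genes had enough counts to be tested. However, Lgr5 met the filter of 10 counts in 2 samples only through the condition where it was highest (F2i). Its comparisons with F2i are therefore given as a description. It is left out of the counts of genes, except in the closing account of processing, where its inclusion is stated.

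N33 ESCs, labelled C57BL/6 and established from C57BL/6J mice by the account of the study, were grown in 4 ways, and 2 replicates of each were sequenced. Cells without feeders (−F) grew on gelatin, and cells with feeders (F) on mitomycin C-treated mouse embryonic fibroblasts (MEFs). Another group (F2i) had feeders and 2i, the name for CHIR99021 together with the MEK inhibitor PD0325901. These 3 groups shared a medium with 20% fetal bovine serum. The last group (NB2i) was cultured in N2B27 medium with 2i on plates coated with poly-L-ornithine and laminin, without serum or feeders, at 3 µM CHIR99021 and 1 µM PD0325901. The doses of 2i in F2i were not given separately. All groups received 1000 U/ml leukemia inhibitory factor (LIF) and their labels name no engineered allele. Cells grown on feeders were separated from them by adherence before RNA was taken. Because 2i holds both inhibitors, the part of CHIR99021 cannot be told apart from that of PD0325901, and in NB2i neither can be told apart from the change of medium, plate coating and serum.

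Without a Wnt signal, GSK3 phosphorylates beta-catenin in a complex built on AXIN and APC, and beta-catenin is degraded. Wnt ligands or a GSK3 inhibitor stabilize it, and it then binds TCF/LEF factors on DNA and induces target genes, several of which code for inhibitors of the pathway itself. In mouse ESCs, TCF7L1 acts mainly as a repressor of pluripotency genes, and inhibition of GSK3 is known to relieve that repression.

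The expected counts of a sample summed to between 20129641 and 20664488, so depth hardly differed between conditions. ESC markers were detected in every sample, and the summed level of 6 such genes ran from 1246 to 1860 FPKM (a level per transcript length and sequencing depth). Of these 6, 4 passed the test as higher and 0 as lower in F2i against F, where 27.3% and 27.4% of all genes did. In NB2i against −F, 5 passed as higher and 1 as lower, where 36.9% and 35.4% of all genes did. The lower one was Sox2 (log2 −0.21), named after its values were seen. Klf4 rose 1.26-fold in F2i against F and 2.79-fold in NB2i against −F, and was already 3.7-fold higher in F than in −F. Fibroblast markers followed the feeders. Their sum over 12 genes was 12.9 and 12.5 FPKM in −F, 228 and 239 in F, 594 and 584 in F2i, and 5.57 and 5.34 in NB2i. Lum was at 0 in both −F samples, and Dcn, Lum and Postn in both NB2i samples. All 12 passed the test as higher in F against −F and 9 in F2i against F, where 21.7% and 27.3% of all genes did. In NB2i against −F, 8 passed as lower and 2 as higher, where 35.4% and 36.9% of all genes did. The 2 higher there were Pdgfrb (2.39-fold) and Fbln2 (1.90-fold), named after their values were seen. The sum was 18.4 times as high in F as in −F and 2.52 times as high in F2i as in F, and its part in the results was not tested. Among those that qualified for naming, Postn, Col1a2 and Col6a1 rose 3.05-fold, 2.76-fold and 1.44-fold in F2i against F, and Twist2 did not pass the test there (log2 −0.11). Primitive endoderm markers also moved with the conditions. Their sum over 6 genes was 5.53 and 4.55 FPKM in −F, 12.7 and 13.1 in F, 5.36 and 4.95 in F2i, and 3.00 and 3.17 in NB2i, and its part in the results was not tested either. All 6 passed as higher in F against −F, 5 of them called, where 21.7% of all genes passed as higher and 5.59% were called higher. In F2i against F, 5 of 6 passed as lower, where 27.4% of all genes did. Dab2, Gata6, Gata4 and Sox7 fell there by 1.31, 1.49, 1.37 and 1.07 on the log2 scale. In NB2i against −F, 2 of 6 passed as lower and 1 as higher, where 35.4% and 36.9% of all genes did. Dab2 and Gata6 fell in that comparison by 3.7 and 2.0 on the log2 scale, Sox7 rose 2.07-fold, and Gata4 did not pass (log2 0.115). ERK response genes, the readout of the MEK inhibitor, were lower with 2i. Of 8 genes, 7 passed the test as lower in F2i against F and 8 in NB2i against −F, beside 27.4% and 35.4% of all genes. Spry4, a feedback inhibitor of ERK signaling, fell by 4.92 on the log2 scale in F2i against F and by 6.22 in NB2i against −F. Etv4, Dusp4 and Egr1 fell by 3.18, 2.17 and 4.57 in F2i against F, and by 4.98, 4.81 and 2.33 in NB2i against −F. Egr1 was already 11.1-fold higher in F than in −F (92.2 against 8.47 FPKM). In F2i against F, Spry2 did not pass the test (log2 −0.006) and Etv5 changed little (log2 −0.21).

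Promoter sequence was examined first, to see which of the genes carry the short motif that TCF/LEF factors bind close to the start site. Windows from 250 bases before to 50 after a RefSeq start site (GRCm38.p6) were searched on both strands for CTTTGNN, where each N is an adenine or a thymine. Matches on opposite strands may overlap, but those shown here do not. Of 32851 windows in the genome, 16.9% held at least 1 match and 1.94% held 2 or more. Windows were found for 8 of the 10 genes, all but Cdx1 and Lgr5, and made 13 windows, of which 3 held a match. They belonged to Sp5 with 2 matches, T with 1, and an alternative start of Lef1 with 1. The windows of Sp5, T and Axin2 are shown because Sp5 and Axin2 rose with 2i in both settings and T in NB2i, with matches in capitals. Sp5 lies on the plus strand at chr2:70474673-70474972, T on the plus strand at chr17:8434173-8434472 and Axin2 on the plus strand at chr11:108920099-108920398.
Sp5: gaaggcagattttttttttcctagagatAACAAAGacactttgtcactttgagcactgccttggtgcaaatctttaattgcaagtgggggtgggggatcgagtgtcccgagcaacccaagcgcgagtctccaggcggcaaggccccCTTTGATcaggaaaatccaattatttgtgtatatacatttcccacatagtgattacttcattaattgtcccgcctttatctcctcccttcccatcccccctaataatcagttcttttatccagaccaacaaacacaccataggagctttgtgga
T: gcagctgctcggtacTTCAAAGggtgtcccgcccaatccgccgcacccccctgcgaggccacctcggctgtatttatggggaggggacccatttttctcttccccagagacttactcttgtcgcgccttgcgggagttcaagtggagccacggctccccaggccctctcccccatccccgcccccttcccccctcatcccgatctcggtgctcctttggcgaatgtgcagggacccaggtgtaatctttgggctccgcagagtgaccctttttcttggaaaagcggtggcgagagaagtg
Axin2: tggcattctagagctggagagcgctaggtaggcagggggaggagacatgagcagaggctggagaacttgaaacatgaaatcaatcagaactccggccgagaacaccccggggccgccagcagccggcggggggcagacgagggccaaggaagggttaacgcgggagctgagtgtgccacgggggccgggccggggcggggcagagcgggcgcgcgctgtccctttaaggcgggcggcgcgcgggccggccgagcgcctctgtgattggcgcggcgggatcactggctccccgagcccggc
In Sp5, CTTTGTT lies on the minus strand and starts at position -222 from the start site, and CTTTGAT lies on the plus strand at -104. In T, CTTTGAA lies on the minus strand at -235. The Axin2 window held none of these letters, which says nothing of sites elsewhere in that gene.

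Axin2 (Entrez 12006, mm10 chromosome 11, 108920349 to 108950783, plus strand) codes for a scaffold protein of the destruction complex and is widely used as a reporter of beta-catenin activity. Its level was 2.32 and 2.46 FPKM in −F, 3.98 and 4.08 in F, 12.4 and 13.2 in F2i, and 16.2 and 16.0 in NB2i. No 2 groups overlapped, and the order was −F, F, F2i and NB2i. With edgeR's quasi-likelihood test and Benjamini-Hochberg adjustment over all genes, Axin2 was 1.71-fold higher in F than in −F (log2 0.78 ± 0.087 SE, adjusted p = 3.39e-07). It was 3.25-fold higher in F2i than in F (adjusted p = 5.77e-15) and 7.06-fold higher in NB2i than in −F (adjusted p = 6.64e-19). NB2i exceeded F2i by 1.27-fold (adjusted p = 2.15e-05). In such bulk samples, a change in the share of cells that express a gene and a change of its RNA per cell cannot be told apart. An antisense gene overlaps exons of Axin2, as others do for Lef1 and Tcf7l1, and whether the counting used strand was not given in the sources used here.

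**Figure D1:**
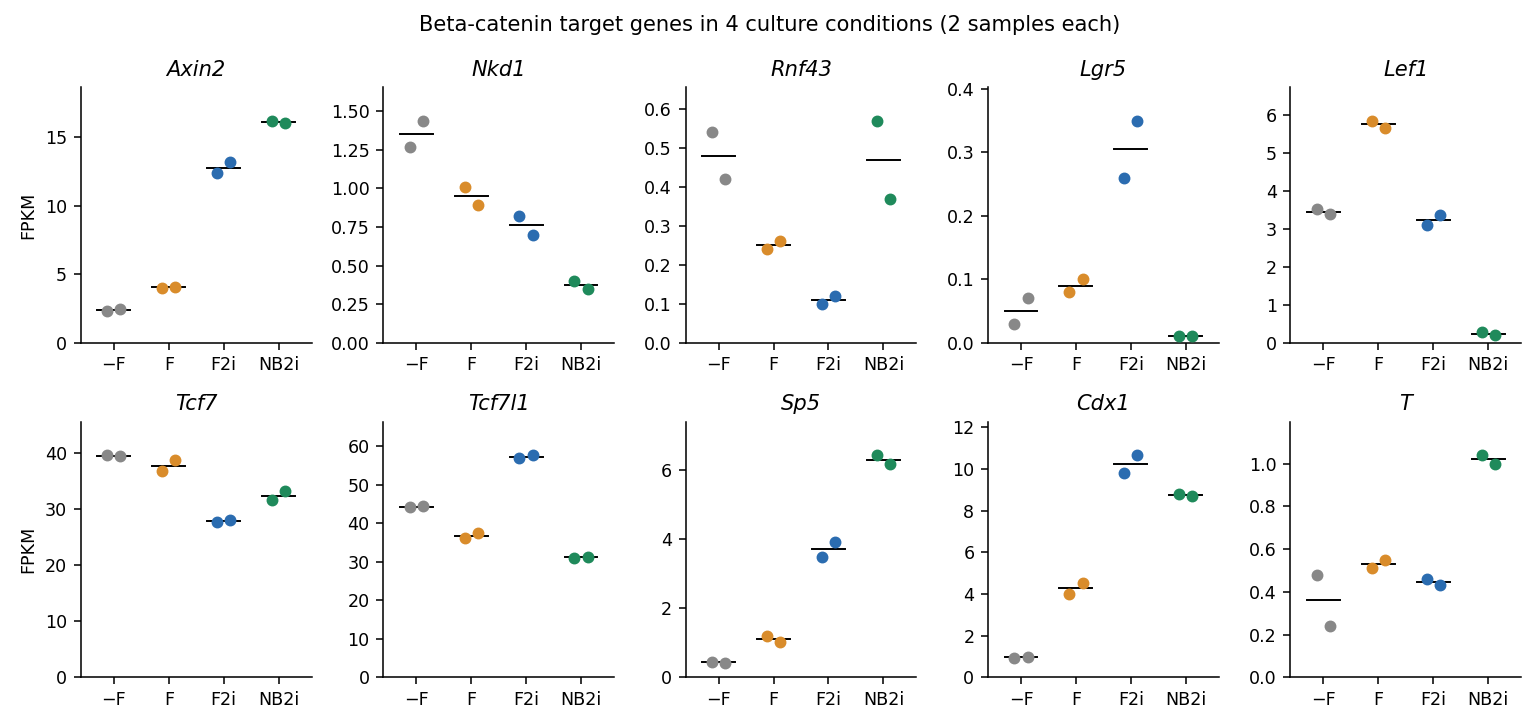
Levels of the 10 target genes in each sample (FPKM, linear axes that start at 0 and differ between genes) by culture condition, with points for the 2 samples and a line for their mean. Axin2 and Sp5 rise in the order −F, F, F2i, NB2i, while Nkd1 falls in that order, from 1.36 FPKM in −F to 0.375 in NB2i.

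Nkd1 and Rnf43, which restrain the pathway at Dishevelled and at the Frizzled receptors respectively, did not follow Axin2. Nkd1 (Entrez 93960, mm10 chromosome 8, 88521354 to 88594884, plus strand) stood at 1.27 and 1.44 FPKM in −F, 1.01 and 0.89 in F, 0.82 and 0.70 in F2i, and 0.40 and 0.35 in NB2i. It was highest in −F and lowest in NB2i, without overlap of any 2 groups. In NB2i it fell by 1.79 on the log2 scale against −F (adjusted p = 1.71e-08) and by 1.02 against F2i (adjusted p = 2.06e-04), where without F2i replicate 1 or NB2i replicate 2 the difference was −0.90 or −0.91, short of 2-fold. On the log2(FPKM + 1) scale, which compresses low levels, these changes were −0.78 and −0.36. The 2i change on feeders was within error (log2 −0.28, 95% interval −0.64 to 0.07, adjusted p = 0.169). Its lower level in F than in −F (log2 −0.49, adjusted p = 0.0154) did not pass in DESeq2 (adjusted p = 0.150) or without −F replicate 2 (0.106) or F replicate 2 (0.124), and over 16 alternatives the adjusted p ran from 0.0116 to 0.150.

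Rnf43 (Entrez 207742, mm10 chromosome 11, 87662722 to 87735539, plus strand) codes for a ubiquitin ligase that removes Frizzled receptors from the cell surface. Its level was 0.54 and 0.42 FPKM in −F, 0.24 and 0.26 in F, 0.10 and 0.12 in F2i, and 0.57 and 0.37 in NB2i. The samples of F2i were the lowest, while −F and NB2i overlapped. Rnf43 passed the test as lower in F than in −F (log2 −0.94 ± 0.29 SE, adjusted p = 0.0122) and in F2i than in F (log2 −1.08 ± 0.39 SE, adjusted p = 0.0234). The difference between F and −F did not pass without −F replicate 1 (adjusted p = 0.107) or F replicate 1 (0.0642), and its adjusted p ran from 0.00896 to 0.107 over 15 alternatives. That between F2i and F did not pass when any of its samples was left out (0.0520 and 0.0923 without F replicates 1 and 2, 0.119 and 0.0564 without F2i replicates 1 and 2), with a range from 0.0181 to 0.150. Between NB2i and −F the estimate was 0.04 on the log2 scale with an interval from −0.48 to 0.56. NB2i was 4.16-fold higher than F2i (log2 2.06, adjusted p = 2.00e-05), but on the log2(FPKM + 1) scale the difference was 0.40, short of 2-fold. Its partner of related function, Znrf3, remained between 3.00 and 3.78 FPKM in all 8 samples, and only its difference between NB2i and F2i passed the test (log2 −0.22, adjusted p = 0.0110).

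Lgr5 (Entrez 14160, mm10 chromosome 10, 115450311 to 115587780, minus strand), a receptor for R-spondins, was close to the limit of detection. Its level was 0.03 and 0.07 FPKM in −F, 0.08 and 0.10 in F, 0.26 and 0.35 in F2i, and 0.01 in both NB2i samples, which corresponds to 25.1 and 34.3 expected counts in F2i and at most 9.59 in any other sample. F2i was the highest group and did not overlap the others. Its fitted level was 3.55-fold that of F, beside the 2.52-fold higher sum of fibroblast markers. Over the summed rounded counts, NB2i had 2 counts and F2i 59, a ratio of 0.0333 with an exact 95% interval from 0.00395 to 0.126 for counting error alone. Against the 10 counts of −F the ratio was 0.199 (0.0212 to 0.932). That difference passed the edgeR test (adjusted p = 0.0442) but not without −F replicate 2 (adjusted p = 0.309) or either NB2i replicate (0.125 and 0.127), and its adjusted p ran from 0.0223 to 0.309 over 12 alternatives. Lgr4, the related receptor, was far more abundant, at 25.1 and 24.3 FPKM in −F, 23.6 and 24.4 in F, 12.8 and 12.2 in F2i, and 15.3 and 16.2 in NB2i. It fell by 0.90 on the log2 scale in F2i against F.

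The TCF/LEF factors carry beta-catenin to DNA, and their transcripts did not move together. Lef1 (Entrez 16842, mm10 chromosome 3, 131110471 to 131224356, plus strand), which acts mainly as an activator, was at 3.53 and 3.38 FPKM in −F, 5.85 and 5.66 in F, 3.09 and 3.35 in F2i, and 0.29 and 0.19 in NB2i. It was highest on feeders in serum and almost lost in NB2i, where every sample lay below all others. Lef1 was 1.66-fold higher in F than in −F (adjusted p = 1.05e-06) and fell by 0.73 on the log2 scale in F2i against F (adjusted p = 4.86e-07). The sum of fibroblast markers was 2.52 times as high in F2i as in F, and its part in the level of Lef1 was not tested. In NB2i it fell by 3.75 against −F and by 3.74 against F2i on the log2 scale (adjusted p = 9.68e-15 and 2.52e-14), and by 1.85 and 1.77 on the log2(FPKM + 1) scale.

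Tcf7l1 (Entrez 21415, mm10 chromosome 6, 72626378 to 72789254, minus strand), the repressor among these factors, was at 44.36 and 44.40 FPKM in −F, 36.1 and 37.5 in F, 56.9 and 57.7 in F2i, and 31.1 and 31.3 in NB2i. The groups did not overlap, and F2i was the highest and NB2i the lowest. Addition of 2i on feeders was accompanied by a 1.60-fold rise of Tcf7l1 (adjusted p = 1.14e-11), whereas NB2i fell by 0.44 on the log2 scale against −F (adjusted p = 1.07e-08) and by 0.87 against F2i. Tcf7 (Entrez 21414, mm10 chromosome 11, 52252371 to 52283014, minus strand), an activator, moved less. It was at 39.6 and 39.5 FPKM in −F, 36.8 and 38.7 in F, 27.66 and 28.02 in F2i, and 31.6 and 33.2 in NB2i. Tcf7 fell by 0.40 on the log2 scale in F2i against F (adjusted p = 3.00e-07) and by 0.23 in NB2i against −F (adjusted p = 1.59e-04). Its difference between F and −F was within error (log2 −0.05, 95% interval −0.14 to 0.04).

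Summed over Tcf7, Tcf7l1, Lef1 and Tcf7l2, TCF/LEF transcripts amounted to 91.4 and 90.8 FPKM in −F, 82.1 and 85.4 in F, 93.2 and 94.5 in F2i, and 67.4 and 68.8 in NB2i. NB2i had the smallest pool. Tcf7l2 rose 1.64-fold in F2i against F (adjusted p = 2.27e-07) and 1.19-fold in NB2i against −F (adjusted p = 0.0102). Tcf7l1 and Tcf7 made up most of it in every sample, and the ratio of Tcf7l1 to Tcf7 separated F2i from the rest. That ratio was 2.06 in both F2i samples and between 0.941 and 1.125 in the other 6. Lef1 contributed 7.13% and 6.63% of the pool in F, 3.31% and 3.54% in F2i, and 0.430% and 0.276% in NB2i. These sums and shares are descriptions of the transcripts without a test.

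**Figure D2:**
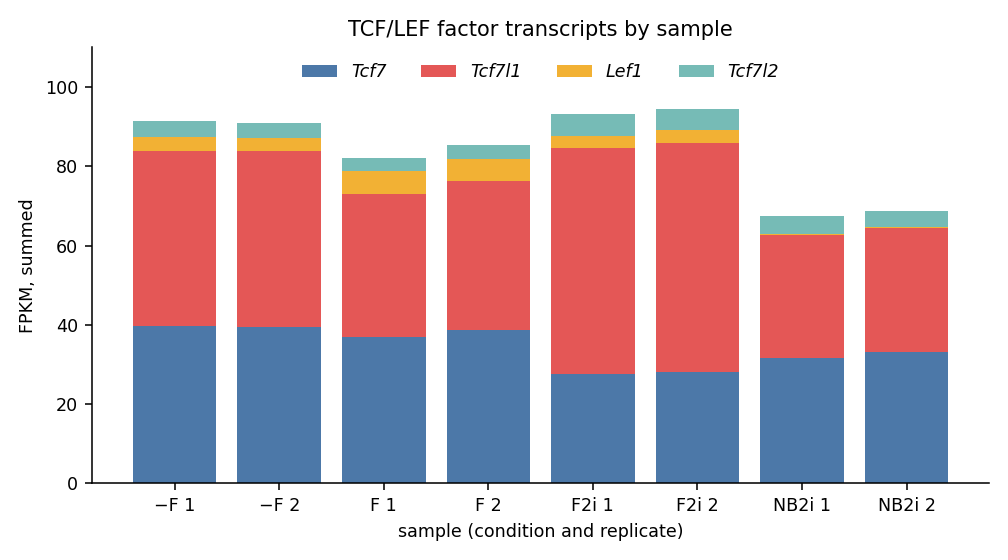
Summed levels of 4 TCF/LEF factor transcripts (FPKM, axis from 0) in each of the 8 samples, with each bar divided by gene. The Tcf7l1 part is widest in F2i, the Lef1 part is widest in F and hardly visible in NB2i, and the NB2i bars are the shortest at 67.4 and 68.8 FPKM.

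Sp5, Cdx1 and T are transcription factors that Wnt signaling induces in the embryo. Sp5 (Entrez 64406, mm10 chromosome 2, 70474923 to 70477729, plus strand) was at 0.44 and 0.42 FPKM in −F, 1.20 and 1.02 in F, 3.50 and 3.93 in F2i, and 6.44 and 6.18 in NB2i. The order of the 4 groups was that of Axin2, again without overlap. Sp5 was 2.60-fold higher in F than in −F (log2 1.38 ± 0.24 SE, adjusted p = 8.31e-05), 3.44-fold higher in F2i than in F (adjusted p = 1.66e-09) and 15.2-fold higher in NB2i than in −F (adjusted p = 4.09e-15). On the log2(FPKM + 1) scale the values of F against −F and NB2i against −F were 0.56 and 2.35 in place of 1.38 and 3.93. NB2i exceeded F2i by 1.70-fold (adjusted p = 2.93e-06). Sp5 had 2 motif matches in its printed window and Axin2 had none, and a link between matches and levels was not tested.

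Cdx1 (Entrez 12590, mm10 chromosome 18, 61018862 to 61036199, minus strand), a homeobox gene of the posterior embryo, showed the strongest feeder response of the 10 genes. Its level was 0.93 and 0.98 FPKM in −F, 4.02 and 4.52 in F, 9.83 and 10.67 in F2i, and 8.82 and 8.72 in NB2i. Every sample with feeders or 2i lay above both −F samples. Cdx1 was 4.54-fold higher in F than in −F (log2 2.18 ± 0.16 SE, adjusted p = 3.14e-10), 2.46-fold higher in F2i than in F (adjusted p = 2.36e-10) and 9.60-fold higher in NB2i than in −F (log2 3.26, adjusted p = 3.01e-15), where the log2(FPKM + 1) scale gave 2.32. In contrast to Axin2 and Sp5, its level in NB2i was not above that in F2i (log2 −0.22, adjusted p = 0.0311), and the adjusted p of that small difference was 0.222 without F2i replicate 2, 0.0860 without NB2i replicate 1 and 0.123 without NB2i replicate 2, and ran from 0.0136 to 0.222 over 16 alternatives.

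T, or Brachyury (Entrez 20997, mm10 chromosome 17, 8434423 to 8442496, plus strand), marks the primitive streak and remained low in all groups. It was at 0.48 and 0.24 FPKM in −F, 0.51 and 0.55 in F, 0.46 and 0.43 in F2i, and 1.04 and 1.00 in NB2i. NB2i lay above all other samples, and −F and F2i overlapped. T was 2.96-fold higher in NB2i than in −F (adjusted p = 9.72e-05) and 2.29-fold higher than in F2i (adjusted p = 0.00127). On the log2(FPKM + 1) scale these differences were 0.58 and 0.48, both short of 2-fold. The difference between F2i and F was within error (log2 −0.20, 95% interval −0.89 to 0.50), as was that between F and −F (log2 0.57, −0.15 to 1.30). Of the 8 other primitive streak genes followed, 6 could be tested. In F2i against F, 1 passed as higher (median log2 −0.36), where 27.3% of all genes did. In NB2i against −F, 2 passed as higher and 1 as lower (median 0.12), where 36.9% and 35.4% of all genes did. Gsc rose 4.63-fold in F2i against F and 7.81-fold in NB2i against −F. In the latter comparison Eomes was 1.97-fold higher and Tbx6 lower by 1.29 on the log2 scale, both named after their values were seen.

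Between F and −F, the comparison that asks what feeders change in serum, 4 of the 9 target genes other than Lgr5 passed the test as higher (Axin2, Lef1, Sp5 and Cdx1) and 3 as lower (Nkd1, Rnf43 and Tcf7l1). Of these, Sp5 and Cdx1 were called, which means an adjusted p under 0.05 and a change of at least 2-fold. Among all genes tested, 5.59% were called higher and 1.65% lower, and 21.7% passed as higher and 18.5% as lower. The median log2 fold change of these 9 genes was 0.57, beside 0.00 for all genes. The primitive endoderm and fibroblast sums were 2.56 and 18.4 times as high in F as in −F, and their part was not tested.

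Between F2i and F, Axin2, Tcf7l1, Sp5 and Cdx1 rose and Rnf43, Lef1 and Tcf7 fell, by the test alone, which 27.3% of all genes passed as higher and 27.4% as lower. Of these 9 genes, Axin2, Sp5 and Cdx1 were called higher and Rnf43 lower, against 6.44% and 7.00% of all genes. Their median was −0.20. In NB2i against −F, Axin2, Sp5, Cdx1 and T rose and were all called, against 11.1% of all genes. Nkd1, Lef1, Tcf7 and Tcf7l1 fell, of which Nkd1 and Lef1 were called, against 16.1% of all genes. By the test alone, 36.9% of all genes passed as higher and 35.4% as lower. The median was 0.04, over values from −3.75 for Lef1 to 3.93 for Sp5. Between NB2i and F2i all 9 passed the test, 5 as higher and 4 as lower, where 33.3% of all genes passed as higher and 30.8% as lower. Rnf43 and T were called higher (6.01% of all genes) and Nkd1 and Lef1 lower (13.3%).

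**Figure D3:**
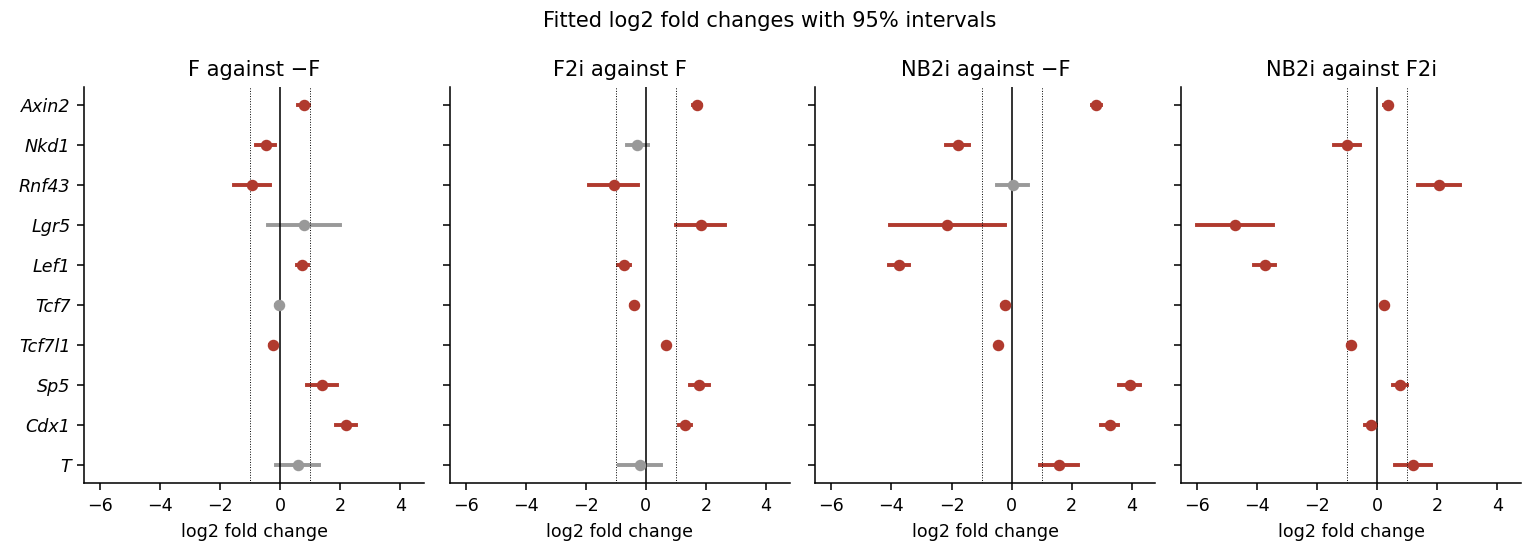
Fitted log2 fold changes (edgeR) of the 10 target genes in 4 comparisons, as points with 95% intervals, with dotted lines at 2-fold in either direction. Red marks an adjusted p under 0.05 and grey the rest. Axin2, Sp5 and Cdx1 lie to the right of 0 in the first 3 panels, and Lef1 lies at −3.75 and −3.74 in the last 2. Lgr5 was tested only because of its F2i counts.

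Comparisons that share a group are not independent, but F2i against F and NB2i against −F share no sample, and their difference was tested in the same fit. It passed for 8 of the 9 genes other than Lgr5, with Rnf43 the exception (adjusted p = 0.0520), 3 in the positive and 5 in the negative direction, where 22.8% and 26.1% of all genes passed. Axin2, Sp5 and Cdx1 rose in both settings and rose less on feeders, with differences of −1.12, −2.15 and −1.96 on the log2 scale. These genes already stood higher in F than in −F, by log2 0.78, 1.38 and 2.18. Between NB2i and F2i their log2 differences were 0.34, 0.77 and −0.22. The difference between settings for T was −1.77. Lef1 fell less on feeders than in NB2i, a difference of 3.02, and that of Nkd1 was 1.50. Tcf7l1 rose on feeders and fell in NB2i, with a difference of 1.12. On the log2(FPKM + 1) scale the differences were −0.88 for Axin2, −1.19 for Sp5, −1.23 for Cdx1, −0.66 for T, 1.17 for Lef1, 0.63 for Nkd1 and 1.12 for Tcf7l1. Of all genes tested, 10.6% were called higher and 5.87% lower in this difference, beside 3 and 4 of the 9 target genes. For Tcf7 the difference was small (−0.17) and did not pass under 10 of 15 alternatives, over which its adjusted p ran from 0.0341 to 0.239. It did not pass without F replicate 2 (0.163), F2i replicate 1 (0.108) or 2 (0.0671), or NB2i replicate 2 (0.157). The adjusted p of Rnf43 became 0.0415 without −F replicate 1 and 0.0182 without NB2i replicate 2, in a range from 0.0182 to 0.344 over 14 alternatives.

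**Figure D4:**
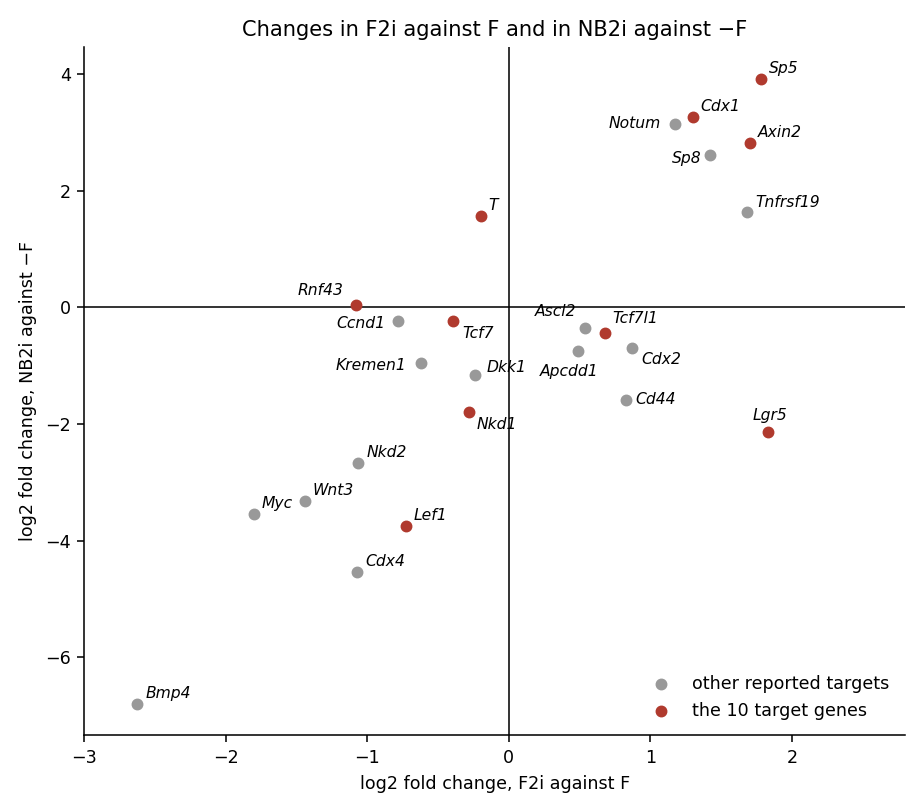
Fitted log2 fold changes of the 10 target genes (red) and 15 other reported beta-catenin targets (grey), with F2i against F on the horizontal axis and NB2i against −F on the vertical axis. Sp5, Cdx1 and Axin2 are at the upper right with Notum, Sp8 and Tnfrsf19, while Lef1, Myc and Bmp4 are at the lower left and Lgr5 and Tcf7l1 at the lower right.

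The other genes of the pathway were given by lists. Transcripts of beta-catenin itself (Ctnnb1) ranged from 200.4 to 218 FPKM in the 8 samples, and neither 2i comparison passed the test (log2 −0.03 in F2i against F and 0.07 in NB2i against −F). Gsk3b, a target of the inhibitor, was higher in F2i than in F (1.39-fold, adjusted p = 1.41e-08) and in NB2i than in −F (1.52-fold, adjusted p = 1.93e-10), while Gsk3a was lower by 0.11 and 0.24 on the log2 scale. The list of 11 genes for the destruction complex included Ctnnb1. Of these 11, 4 passed as higher and 4 as lower in F2i against F, where 27.3% and 27.4% of all genes did. In NB2i against −F, 5 and 3 passed, where 36.9% and 35.4% of all genes did.

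The 15 further reported targets of beta-catenin moved in both directions. In F2i against F, 6 of 15 passed as higher and 6 as lower, and in NB2i against −F 3 passed as higher and 10 as lower, with medians of −0.24 and −0.95, beside the 27.3% and 27.4%, and the 36.9% and 35.4%, of all genes. Cd44, named after its values were seen, is among the 6 higher and the 10 lower. Its level was 0.31 and 0.32 FPKM in −F, 8.54 and 9.39 in F, 15.9 and 15.0 in F2i, and 0.03 and 0.18 in NB2i. The sum of fibroblast markers was also highest in F2i and lowest in NB2i, and its part in the level of Cd44 was not tested. Notum, a secreted Wnt inhibitor, was at 2.35 and 2.08 FPKM in −F, 3.84 and 3.62 in F, 7.92 and 8.46 in F2i, and 19.6 and 17.7 in NB2i. It rose 2.26-fold in F2i against F and 8.82-fold in NB2i against −F, in the same order of groups as Axin2 and Sp5. Sp8 and Tnfrsf19 were the other genes of this list called higher in both, and are named here after their values were seen. Nkd2, the relative of Nkd1, fell by 1.06 and 2.67 on the log2 scale, and Myc by 1.80 and 3.54. Bmp4 fell by 2.63 on feeders and by 6.81 in NB2i.

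Among 18 Wnt receptors and transducers, 5 passed as higher and 6 as lower in F2i against F, and 7 and 8 in NB2i against −F, near the 27.3% and 27.4%, and the 36.9% and 35.4%, of all genes. Fzd10 rose 3.49-fold and 11.4-fold in these comparisons, from 2.40 and 1.94 FPKM in −F to 24.6 and 22.6 in NB2i. Fzd7, at 33.5 and 32.7 FPKM in −F, fell by 0.90 and 1.99 on the log2 scale. Fzd1 and Fzd3 fell by 2.12 and 1.85 in NB2i against −F. Of 11 partners of TCF factors, 2 passed as higher and 3 as lower in F2i against F, and 4 and 7 in NB2i against −F. The shares of all genes beside these counts are those just given. The corepressor genes Tle1 and Tle3 moved in opposite directions in NB2i against −F, where Tle1 fell by 1.19 on the log2 scale and Tle3 rose 2.16-fold (adjusted p = 7.48e-16), and Pygo1 fell by 1.25. Of 6 genes of the R-spondin axis that could be tested, 3 passed as lower in F2i against F and 4 in NB2i against −F. Among all genes, 27.4% and 35.4% passed as lower there. Rspo1, a secreted ligand of the LGR receptors, fell by 2.09 and 3.64.

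All 5 genes reported as repressed by TCF7L1 in ESCs passed as higher in F against −F, in F2i against F and in NB2i against −F, where 21.7%, 27.3% and 36.9% of all genes did. Tfcp2l1 was at 24.2 and 26.7 FPKM in −F, 42.6 and 43.3 in F, 135 and 121 in F2i, and 170 and 175 in NB2i, again in the order of Axin2. It rose 3.07-fold in F2i against F, where the transcript of Tcf7l1 was also higher, and 7.11-fold in NB2i against −F, where that of Tcf7l1 was lower. Nr5a2 rose 2.12-fold and 4.67-fold, and Klf2 1.30-fold and 3.34-fold. Between NB2i and F2i, 2 of the 5 passed as higher and 2 as lower, where 33.3% and 30.8% of all genes did. Tfcp2l1 and Nr5a2 were 1.35-fold and 1.21-fold higher in NB2i there, and Klf2 was lower by 0.89 on the log2 scale. Of these 5 genes, 4 differed in the same sense as Axin2 and 1 in the other between both settings, where 26.1% and 22.8% of all genes did.

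Finally, genes whose levels followed Axin2 most closely were sought among the 12090 genes that averaged 1 FPKM or more, by the distance between log2(FPKM + 1) levels, centred on the mean of each gene, over the 8 samples. Kit, a receptor tyrosine kinase, came first (Pearson r = 0.999 with Axin2 over 8 samples of 4 conditions), with mean levels of 10.7, 16.9, 47.3 and 56.8 FPKM in −F, F, F2i and NB2i. Rab11fip5, Nynrin, Pknox2 and Pdgfc followed. Of the target genes above this level, Sp5 ranked 9 (r = 0.990) and Cdx1 177, whereas Tcf7l1, Tcf7 and Lef1 ranked 7151, 9121 and 11767. The points share 4 conditions, so that these values describe the order of the groups and are no test.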

How the data were processed

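Poly-A RNA of 8 ESC samples was sequenced by the authors as single-end reads, which they mapped to mm10 with Bowtie2 and assigned to genes with RSEM. The expected counts deposited by the authors are RSEM estimates per gene, not normalized, of which 29.5% to 30.0% per sample were not whole because shared reads are divided among genes. The FPKM values deposited by the authors are these estimates per transcript length and depth. No samples were pooled. Transcript length, also deposited, was not tested.

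Samples were grouped by their labels. The members and gene lists were chosen with earlier results of these data known. After rounding of the expected counts, edgeR 4.0.16 (R 4.3.3) was run with TMM normalization as 1 quasi-likelihood fit (glmQLFit, glmQLFTest) of all 8 samples without a block, over the 15287 genes that reached 10 counts in 2 samples or more. P-values were adjusted over all these genes by Benjamini-Hochberg, and genes were called that passed 0.05 after adjustment and differed 2-fold or more. Each standard error was derived from the F statistic. The spread that edgeR terms biological variation (BCV) was 3.254%, with 4 residual degrees of freedom. The fit also moderates the spread of each gene with information from the other genes, so p-values and intervals do not rest on these 4 alone. An exact permutation of 2 against 2 samples cannot give a p under 0.3333. The replicates are described as biological, but separate cultures are not detailed in the labels. The p-values therefore measure the spread between these samples, moderated across genes. Depth was about equal, and intervals on counts cover counting error only. All members are named, and of each other list up to 4 genes called in F2i against F or NB2i against −F with a mean of at least 1 FPKM, largest changes first, with Ctnnb1, Gsk3a, Gsk3b, Znrf3, Lgr4 and Tcf7l2 in any case. Alternatives were DESeq2 1.42.0, its size factors, other filters, only the compared groups, a replicate block, each sample left out, an adjusted p of 0.01, and limma 3.58.1 applied to FPKM on the log2 scale with a pseudocount of 1 or 0.1. Scripts were tested on simulated data. Coordinates are from GENCODE (mm10) and promoters from RefSeq (GRCm38.p6).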

Additional observations from a re-analysis of the deposited data

Results flagged for a closer look

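The change with 2i on feeders in serum (F2i against F) and the change from serum on gelatin to N2B27 with 2i (NB2i against −F) differed for 8 of the 9 target genes other than Lgr5 by the test of the difference itself (edgeR, Benjamini-Hochberg adjustment over all genes tested). Values below 0 mean a lower change on feeders. Each value combines the difference of F from −F with that of F2i from NB2i. The difference was −1.12 on the log2 scale for Axin2 (SE 0.10, adjusted p = 1.28e-08), −2.15 for Sp5 (SE 0.26, adjusted p = 6.23e-07), −1.96 for Cdx1 (SE 0.18, adjusted p = 1.31e-08) and −1.77 for T (SE 0.46, adjusted p = 0.00294). It was 1.50 for Nkd1 (SE 0.26, adjusted p = 5.25e-05), 3.02 for Lef1 (SE 0.20, adjusted p = 8.62e-11), 1.12 for Tcf7l1 (SE 0.06, adjusted p = 3.04e-12) and 3.96 for Lgr5 (SE 0.99). Lgr5 passed the count filter only through F2i, and its fitted size depends on the prior count, so its value is a description. For Tcf7 it was −0.17 (SE 0.066, adjusted p = 0.0367), which did not pass under 10 of 15 alternatives. Serum, coating, medium and possibly the 2i doses also differ between these settings and cannot be told apart from one another.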

How the results depend on the processing

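Of 50 log2 fold changes of the target genes, 41 kept their direction and side of the threshold under every alternative run. The other 9 were those of Rnf43 in F against −F, F2i against F, NB2i against −F and the difference between settings, Nkd1 in F against −F, Lgr5 in NB2i against −F and the difference, Cdx1 in NB2i against F2i, and Tcf7 in the difference. Only Rnf43 in NB2i against −F changed sign, from 0.04 to −0.12 without −F replicate 2, −0.32 without NB2i replicate 1 (leaving out each sample gave −0.32 to 0.34), −0.012 on log2(FPKM + 1) and −0.040 on log2(FPKM + 0.1), and it passed the test in none of these.

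With all 10 genes counted, Lgr5 included where it was tested, and with log2(FPKM + 1), the target genes called numbered 1 in F against −F (2 in edgeR), 3 in F2i against F (5), 4 in NB2i against −F (7), 1 in NB2i against F2i (5) and 4 in the difference (8). They numbered 3 in F2i against F and 3 in NB2i against F2i with log2(FPKM + 0.1), and 3 and 3 where 10 counts were required in every sample. Over all genes, in the same order of comparisons, that filter called 393, 1110, 2597, 1513 and 1545, and log2(FPKM + 1) called 309, 731, 1982, 1094 and 1022, beside 1107, 2055, 4152, 2956 and 2522 in edgeR. Fewer genes enter these fits, and a pseudocount of 1 shrinks the changes of low genes. Leaving out each sample gave 2 to 3, 4 to 5, 6 to 7, 4 to 5 and 7 to 9 target genes called.

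Replicate numbers did not pair the samples (correlations of deviations between −0.0456 and 0.0538 over 12707 genes). With a replicate block, 2, 5, 7, 5 and 8 target genes were called, Lgr5 included, and no call changed. Depth limits Lgr5, Rnf43 and T most, which lie near or below 1 FPKM.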
